A study of Mus musculus with 37 samples.

Results

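Members of the mucosal defense, namely Ltf, Sftpd, Lcn2, Pigr, Wfdc2, Saa1, Saa3, Camp, Ngp and Slpi, were followed through 37 RNA-seq libraries of female BALB/c mouse urinary tract, where they were 10 of the 24421 gene symbols measured. The list was built around Ltf and Sftpd, which were chosen by their fold change between UT and UN, among the largest increases on the cancer side. The 10 genes encode secreted proteins or, for Pigr, the receptor that carries antibodies into secretions. All groups are labelled wild type. BBN, a nitrosamine carcinogen, was given in drinking water for 18 weeks, and untreated mice drank tap water. The 11 UT libraries were taken after BBN from the side of the upper urinary tract that bore cancer, with mouse 5 giving both its right side (5R) and its left side (5L). The expression figures of the study give 10 UT samples, while 11 libraries carry this label, and all 11 were kept here. The 7 UN libraries came from the noncancerous side of such mice, and 7 mice gave both UT and UN. The 6 U libraries were both ureters of 3 untreated mice, so that they are not 6 independent animals. The bladders gave 10 libraries from BBN-treated mice (BBN bladder) and 3 from untreated mice. Levels are given as counts per 1000000 counts of the library (CPM), and SD is the standard deviation over libraries.

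An epithelium that faces the outside secretes proteins that hold microbes in check. Lactoferrin (Ltf) binds iron, and lipocalin-2 (Lcn2) binds the siderophores with which bacteria collect it. Surfactant protein D (Sftpd) is a collectin that binds sugars on microbial surfaces, and the polymeric immunoglobulin receptor (Pigr) carries IgA from the tissue across the epithelium. Wfdc2 and Slpi are small whey acidic protein domain secretions, of which Slpi inhibits serine proteases of neutrophils. Serum amyloid A proteins (Saa1, Saa3) rise in acute inflammation, and the cathelicidin Camp and its relative Ngp are stored in neutrophil granules. Ltf and Lcn2 are also granule proteins, and the transcripts of all 4 granule genes are best known from granulocyte precursors in bone marrow. In bulk tissue, a lower share of cells of a type cannot be told apart from less RNA per cell.

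The members lie on 5 chromosomes of the mouse genome (GRCm38, GENCODE vM21). Ltf (chr9:111019271-111042767), Ngp (chr9:110419747-110423012) and Camp (chr9:109847379-109849617) share chromosome 9, Wfdc2 (chr2:164562413-164568510), Slpi (chr2:164354070-164389095) and Lcn2 (chr2:32384633-32388252) share chromosome 2, and Saa1 (chr7:46740497-46742980) and Saa3 (chr7:46711998-46715700) lie close together on chromosome 7. Sftpd is at chr14:41172214-41185149 and Pigr at chr1:130826684-130852249. RefSeq windows from 250 bases before to 50 bases after the transcription start (GRCm38.p6) matched 9 of the 10 members. They were searched on both strands for the C/EBP motif TTNNGNAA, for the NF-kB consensus and for the AP-1 motif TGANTCA, since C/EBP factors are known to switch on granule and acute phase genes. Of 32851 windows, 40.7% held the C/EBP motif, 5.8% the NF-kB consensus and 7.81% the AP-1 motif. Of the members, 7 held 1 or more C/EBP matches, with 4 in Saa3, 3 each in Ngp and Slpi, 2 each in Ltf and Saa1, and 1 each in Lcn2 and Wfdc2. None held an NF-kB or AP-1 match. The upstream sequences of Ltf, Ngp and Saa3 are shown because Ltf and Ngp, which are both granule genes, had unlike patterns in these libraries, and Saa3 held the most matches. They run 5′ to 3′ on the gene's strand up to the first annotated start, with C/EBP matches in capitals. The window of Ngp holds a further match downstream of the stretch shown.
Ltf, chr9:111019042-111019270, plus strand: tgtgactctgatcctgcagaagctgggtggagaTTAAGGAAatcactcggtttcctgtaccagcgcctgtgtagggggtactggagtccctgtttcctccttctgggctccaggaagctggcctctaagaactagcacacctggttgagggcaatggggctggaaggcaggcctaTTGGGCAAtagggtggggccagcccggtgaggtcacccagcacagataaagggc
Ngp, chr9:110419558-110419746, plus strand: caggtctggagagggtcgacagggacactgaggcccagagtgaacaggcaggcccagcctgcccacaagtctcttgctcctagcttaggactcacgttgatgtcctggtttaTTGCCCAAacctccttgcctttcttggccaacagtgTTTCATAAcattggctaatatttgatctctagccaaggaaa
Saa3, chr7:46715701-46715926, minus strand: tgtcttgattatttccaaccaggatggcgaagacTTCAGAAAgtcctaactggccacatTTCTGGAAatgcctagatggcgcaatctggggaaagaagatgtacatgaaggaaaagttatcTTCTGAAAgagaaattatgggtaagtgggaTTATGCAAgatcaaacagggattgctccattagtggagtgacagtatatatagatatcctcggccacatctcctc

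The libraries held 3557553 to 18793434 counts. A count is worth less than 1 CPM in every library, and levels under 1 CPM rest on few counts. In RNA quality, 3 BBN bladders (mice 1, 3 and 4) had an RNA integrity number under 5, and the library of BBN bladder 6 carries a letter T in its label where the other BBN bladders carry N. UN 2 stood apart in tissue makeup, since its 12 urothelium markers summed to 38 CPM against 1255 to 10590.3 CPM in the other 6 UN libraries, and its 8 white adipocyte markers summed to 66114.5 CPM, the highest of the UN libraries. UT 4 carried kidney tubule RNA, with Umod at 931 CPM and Slc34a1 at 514 CPM, while no other UT library exceeded 3.13 and 8.99 CPM. BBN bladder 3 carried the hepatocyte gene Alb at 537 CPM, against at most 33.4 CPM in the other BBN bladders. The part of these differences in the results was not tested, and values that turned or lost a call without one of these libraries are given beside the result.

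Ltf was nearly silent in untreated tissue and abundant on the cancer side and in BBN bladders. In U it ranged from 0.851 to 1.54 CPM (median 1.02 CPM, n = 6), and the 3 untreated bladders had 0.932, 1.2 and 1.25 CPM. In UN it ranged from 2.99 CPM (UN 6) over a median of 5.94 CPM to 159 CPM (UN 7, n = 7). In UT it ranged from 54.7 CPM (UT 9) over a median of 392 CPM to 1709 CPM (UT 2, n = 11), with a mean of 543 ± 482 CPM. Every UT and every UN library lay above every U library, and 9 of 11 UT libraries lay above the highest UN library. Only UT 6 at 83.2 CPM and UT 9 fell within the range of UN. BBN bladders ranged from 20.8 CPM (BBN bladder 3) over 489 CPM to 2183 CPM (BBN bladder 7, n = 10), all above the untreated bladders. The 4 lowest were BBN bladders 3, 1, 6 and 4, at 20.8, 53.8, 99.2 and 144 CPM, which are the 3 of low RNA integrity and the one labelled T, while the other 6 had at least 358 CPM.

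Lcn2 was above untreated ureter in all 11 UT and in 6 of 7 UN libraries, and it varied widely within both groups. In U it ranged from 0.417 to 2.21 CPM (median 1.07 CPM), in UN from 2.02 CPM (UN 9) over 53.6 CPM to 1329 CPM (UN 3), and in UT from 12.6 CPM (UT 9) over 195 CPM to 1465 CPM (UT 3). The highest UN and the highest UT library came from the same mouse, mouse 3, and only UT 3 exceeded UN 3. Of the BBN bladders 9 of 10 had 2.17 to 27.5 CPM, a range that overlaps with those of UN and UT, and BBN bladder 3 had 501 CPM. Untreated bladders had 0.0602, 0.697 and 0.733 CPM.

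Sftpd was the one member with every UT library above every UN library, and it was picked for its increase in this comparison. U had 0.0696 to 0.319 CPM (17 counts in 6 libraries) and untreated bladders 0.0602, 0.0666 and 0.139 CPM (4 counts in 3 libraries). UN ranged from 0.183 CPM (UN 2) over 2.14 CPM to 5.31 CPM (UN 7), and UT from 5.91 CPM (UT 2) over 26.1 CPM to 227 CPM (UT 5L). BBN bladders ranged from 2.84 CPM (BBN bladder 1) over 35 CPM to 174 CPM (BBN bladder 9). The lowest UT library and the highest UN library were thus close, at 5.91 and 5.31 CPM. The lung surfactant genes Sftpc and Sftpb, which mark alveolar type II cells, did not exceed 0.562 CPM in any library, and the collectin relative Sftpa1 did not exceed 9.2 CPM (UN 6). UN 6 was also the shallowest UN library, with 4674970 counts. Other genes on the list of lung secretory epithelium were not silent. The protease Napsa, which also is made in kidney, had 1.91 to 7.94 CPM in U, 9.8 to 53.2 CPM in UN and 5.18 to 413 CPM (UT 4) in UT, and was called higher in UN (log2 fold change 2.38, SE 0.81, edgeR adjusted p = 0.054) and in UT (3.65, SE 0.83, adjusted p = 0.00138) than in U. Hopx was called higher in UN (1.32, SE 0.45, adjusted p = 0.0546) and not in UT (0.81, SE 0.42, adjusted p = 0.117). The club cell gene Scgb1a1 was called higher in BBN bladder (4.94, SE 1.35, adjusted p = 0.0312), at 0.256 to 5.52 CPM against at most 0.2 CPM in untreated bladders. Their part in the level of Sftpd was not tested.

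Pigr was low in U at 1.82 to 3.19 CPM and higher in untreated bladders at 16.2, 16.3 and 24.4 CPM. On the noncancerous side it had 27.8 to 121 CPM in 6 libraries and 1.83 CPM in UN 2, the library with little urothelium RNA. UT ranged from 26.6 CPM (UT 2) over 85.9 CPM to 471 CPM (UT 1), all above U. BBN bladders ranged from 7.24 CPM (BBN bladder 6) over 56.5 CPM to 188 CPM (BBN bladder 8), and 8 of 10 lay above the untreated bladders while BBN bladders 4 and 6 lay below them. Jchain, which joins the IgA that Pigr carries, had 6.01 to 40.7 CPM in U, 146 to 700 CPM in UN and 27.9 to 2140 CPM in UT.

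Wfdc2 was the member with the highest level in untreated tissue, also per length. Per kilobase of exon its mean level was 61.4 ± 13.6 CPM (SD, n = 6) in U and 281 ± 6.68 CPM (n = 3) in untreated bladders, while no mean of another member exceeded 4.87 and 17.5 CPM per kilobase there. In CPM it ranged from 48.1 to 92.4 in U, from 127 (UT 9) over 555 to 1262 (UT 1) in UT, and from 75.1 to 685 in 6 UN libraries, with 3.29 in UN 2. Untreated bladders had 314, 318 and 329 CPM, a spread of 7.61 CPM (SD), and every BBN bladder lay above them with 420 to 2035 CPM. Thus 3 of 11 UT libraries and 4 of 7 UN libraries still lay below the untreated bladders in Wfdc2.

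Slpi ranged from 1.15 to 17.8 CPM in U, from 15.6 CPM (UN 9) over 43.5 CPM to 406 CPM (UN 3) in UN, and from 27 CPM (UT 10) over 236 CPM to 925 CPM (UT 5L) in UT. The UT libraries 3, 5R, 5L and 7 had at least 823 CPM, and the other 7 did not exceed 478 CPM. Untreated bladders had 14.7, 15.1 and 32.2 CPM and BBN bladders 28 to 372 CPM, with BBN bladder 10 the one that did not exceed the highest untreated bladder.

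The serum amyloid genes varied widely among BBN-treated libraries. For Saa3, 10 of 11 UT libraries exceeded every U library and 10 of 10 BBN bladders exceeded every untreated bladder, and for Saa1 these were 9 of 11 and 6 of 10. Saa3 had 0.446 to 5.11 CPM in U, 0.428 (UN 6) to 512 CPM (UN 3) in UN with a median of 24.2 CPM, and 1.62 (UT 9) to 329 CPM (UT 3) in UT with a median of 20 CPM. UN 2 was the second highest in UN at 302 CPM. BBN bladders had 0.479 to 7.26 CPM apart from BBN bladder 3 at 68.6 CPM, and untreated bladders 0.12, 0.28 and 0.47 CPM. Saa1 had at most 0.308 CPM in U, 0.0748 to 30.3 CPM in UN and 0 to 37.8 CPM in UT, and it was at 0 in all 3 untreated bladders and in 4 BBN bladders. In BBN bladder 3 alone Saa1 reached 2059 CPM, and the next highest BBN bladder had 1.89 CPM. BBN bladder 3 also had 1663 CPM of Saa2 and 534 CPM of the acute phase gene Orm1. Orm1 did not exceed 44.8 CPM in the other BBN bladders, but had 209 to 352 CPM in U and 33.5 to 374 CPM in UN. The coding sequences of Saa1 and Saa2 were 95.1% identical, and those of Saa1 and Saa3 76.1%, so that the split of reads between Saa1 and Saa2 is uncertain.

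Camp and Ngp stayed near 0 in nearly all libraries. Camp had at most 0.679 CPM in UT, 0.139 CPM in U and 0.0602 CPM in untreated bladders, and it exceeded 1 CPM only in UN 2 (4.11 CPM) and BBN bladder 2 (1.26 CPM). Ngp had 0 to 6.79 CPM in UT (median 0.836 CPM), 0.154 to 0.701 CPM in U and 0 in the 3 untreated bladders, and its highest levels were 17.5 CPM in UN 2 and 11.6 CPM in BBN bladder 2. UN 2 was thus the top library for both granule genes and the lowest UN library for Sftpd, Pigr and Wfdc2. Its 13 measured neutrophil markers summed to 606 CPM, against 80.4 to 255 CPM in the other UN libraries.

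**Figure D1:**
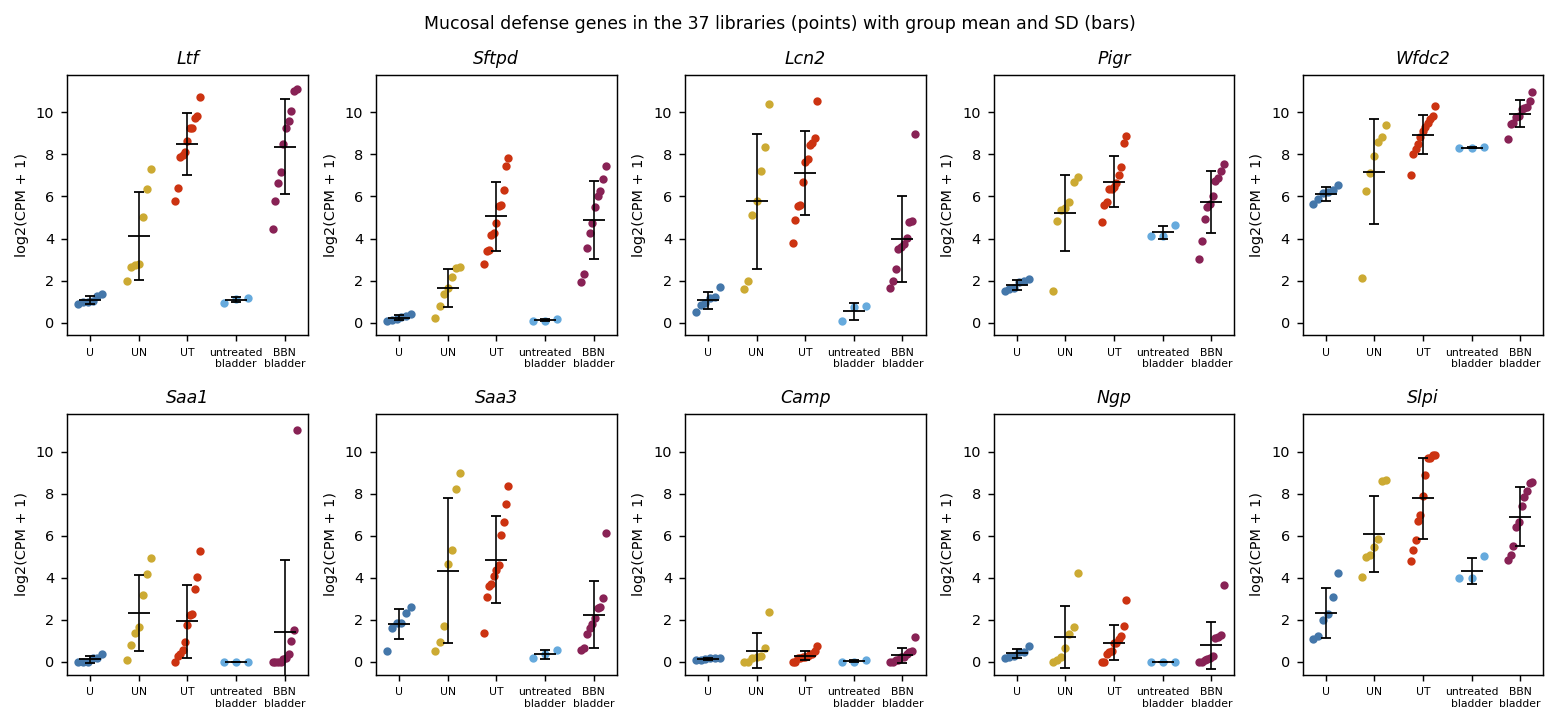
Each panel plots 1 gene as log2(CPM + 1) in the 37 libraries, with a point for each library and bars for the mean and SD of the group. Ltf and Sftpd step up from U over UN to UT, Lcn2 and Saa3 spread over the same range in UN and UT, and Camp and Ngp stay low apart from single libraries such as UN 2 at 17.5 CPM of Ngp.

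Ltf and Lcn2 did not follow Ngp, although all 3 are granule genes. For Ltf the gap between UT and UN follows in part from its choice, while the bladders had no part in that choice. Per kilobase of exon, Ltf exceeded Ngp in 11 of 11 UT and 10 of 10 BBN bladder libraries, with ratios of the summed counts of 132 and 217. In UN the ratio was 5.93 and 5 of 7 libraries had more Ltf, while in U it was 1.15 and 3 of 6 did. Single libraries weighed on these pooled ratios, since UN 2 held 191 of the 250 Ngp counts of UN and BBN bladder 2 held 129 of the 164 of BBN bladders. The ratio of Ltf to Ngp was 24.7 in UN without UN 2 and 2.68 without UN 7, 255 in UT without UT 8 and 946 in BBN bladders without BBN bladder 2. The ratio of Lcn2 to Ngp was 96.6 in UT, 49.2 in UN, 1.57 in U and 8.98 in BBN bladders. It was 180 in UN without UN 2 and 13.3 without UN 3, and 189 in UT without UT 8 and 60 without UT 3, so that the order of UT and UN turned with the library left out. In BBN bladders, where BBN bladder 3 held 1783 of the 3160 Lcn2 counts, it was 4.03 without BBN bladder 3, 40.5 without BBN bladder 2 and 19.6 without both. Genes of the primary granules differed among themselves. Mpo did not exceed 2.57 CPM in UT, 4.66 CPM in UN and 2.1 CPM in U, and Elane did not exceed 3.39, 5.67 and 5.89 CPM and was called lower in UT than in U (log2 fold change -2.29, SE 0.76, edgeR adjusted p = 0.0185). Prtn3 went higher, with 0.216 CPM (UT 2) to 23.7 CPM (UT 7) in UT and 1.45 CPM (UN 1) to 45.5 CPM (UN 2) in UN against 2.77 to 5.61 CPM in U, and it was called higher in UN (2.07, SE 0.78, adjusted p = 0.0788) and not in UT (0.71, SE 0.69, adjusted p = 0.419). Genes of mature neutrophils were present, with Retnlg at 4.37 to 549 CPM in UT, 2.57 to 220 CPM in UN and 3.41 to 11.3 CPM in U. The 13 measured neutrophil markers summed to 108 to 703 CPM in UT, 80.4 to 606 CPM in UN and 26.4 to 42.7 CPM in U, and none of the 13 was at 0 throughout a group. Their part in the levels of Ltf and Lcn2 was not tested.

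**Figure D2:**
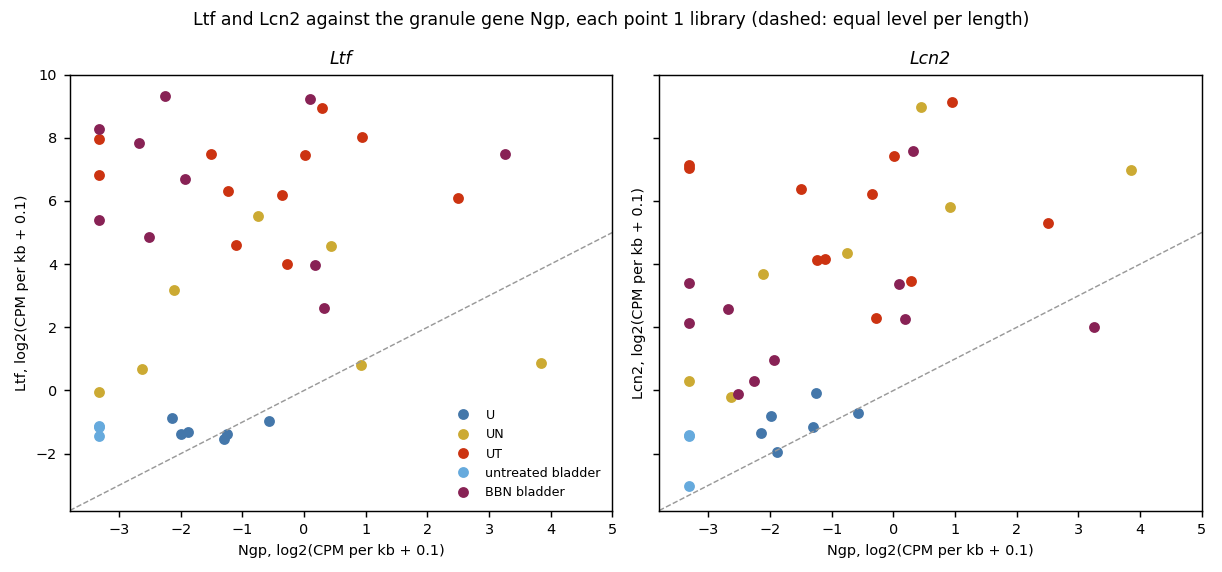
Each point is 1 library, with Ngp on the horizontal and Ltf or Lcn2 on the vertical axis, both as log2(CPM per kilobase of exon + 0.1), and the dashed line marks equal levels. The 11 UT libraries lie above the line in both panels, U libraries lie close to it, and UN 2 lies at the far right, below the line for Ltf and above it for Lcn2.

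Within single mice the cancerous and the noncancerous side were set side by side. The difference is given on the scale log2(CPM + 1), which understates changes of low genes, and without a test, since UT against UN is the comparison from which Ltf and Sftpd were picked. Ltf was higher in UT than in UN of the same mouse in 7 of 7 mice, by 4.25 ± 2.27 (SD), from 0.67 in mouse 7 to 7.94 in mouse 2. Sftpd was higher in 7 of 7 mice, by 3 ± 1.32, and so was Pigr, by 1.42 ± 1.19. Lcn2 was higher in 6 of 7, by 1.31 ± 2.46, with mouse 2 as the exception, and Wfdc2 in 6 of 7, by 1.61 ± 2.23, with mouse 7 as the exception. Slpi was higher in UT in 5 mice, Ngp in 5, Saa3 in 4, Saa1 in 3 and Camp in 3. In mouse 2 the members split, with Ltf rising from 5.94 to 1709 CPM and Wfdc2 from 3.29 to 356 CPM from UN to UT, while Lcn2 went from 330 to 28.6 CPM, Saa3 from 302 to 15.8 CPM and Ngp from 17.5 to 1.37 CPM.

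**Figure D3:**
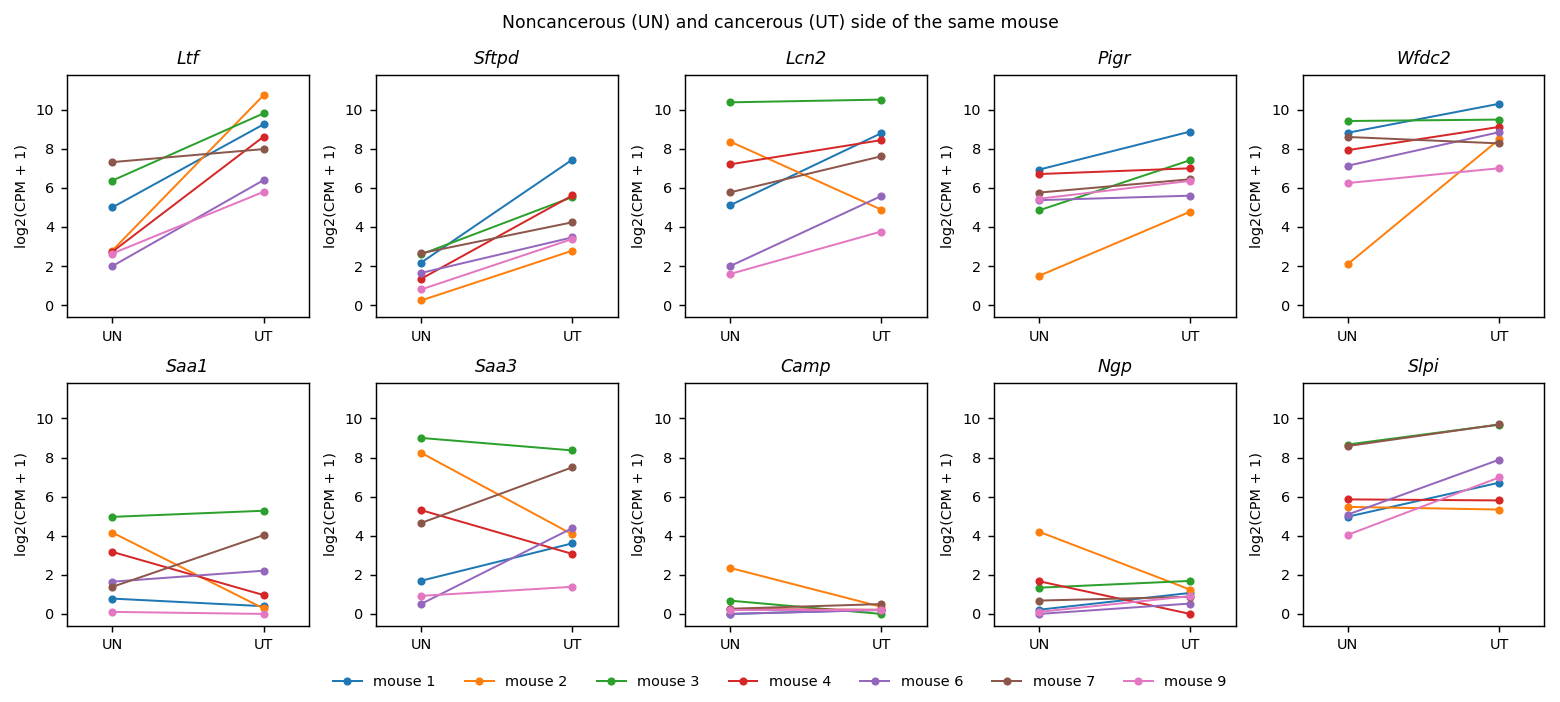
Each line joins the UN and the UT library of 1 of 7 mice, with the level as log2(CPM + 1). All lines rise for Ltf, Sftpd and Pigr, and the line of mouse 2 falls for Lcn2, Saa1, Saa3, Camp and Ngp, and slightly for Slpi.

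The edgeR fit over the 24 ureter libraries gave the size of these differences over all 11 UT and 7 UN libraries. The log2 fold change was 3.70 for Ltf (standard error, SE, 0.77), 4.33 for Sftpd (SE 0.77), 1.42 for Slpi (SE 0.79), 1.28 for Pigr (SE 0.55) and 0.91 for Wfdc2 (SE 0.53). It was -0.12 for Lcn2 (SE 0.92), -0.68 for Saa1 (SE 0.98), -1.21 for Saa3 (SE 1.01) and -1.80 for Ngp (SE 0.92), and Camp did not pass the filter on low counts. Ltf, Sftpd and Slpi kept their sign but also moved. Ltf was at 2.89 with RNA integrity as a covariate and 4.43 without UN 7. Sftpd was at 3.49 with the mouse as a block, and Slpi at 2.06 without UN 3. The values of Lcn2, Saa1, Saa3 and Ngp were not stable. The mouse as a block turned Lcn2 to 1.51 and Saa3 to 0.43 and brought Ngp to -0.04. Lcn2 was at 1.27 and Saa1 at 0.02 without UN 3, Lcn2 was at -1.16 with RNA integrity as a covariate, and Ngp was at 0.58 without UN 2. Over the 7 members other than Ltf and Sftpd the median was -0.12, against -0.02 for all 15658 genes, and it was 1.12 with the mouse as a block, 1.17 without UN 3, 0.58 without UN 2, -0.85 without UT 3 and -1.16 with RNA integrity as a covariate. With Ltf and Sftpd, which this comparison picked, the median of the 9 was 0.91. In this comparison 1.32% of all genes were called higher and 4.2% lower (edgeR, adjusted p under 0.1 and at least 2-fold). Every UT library exceeded every UN library for 3 genes, 0.0127% of those with a count, with Sftpd among them, and as Sftpd was picked by this comparison nothing is read from that share.

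The noncancerous side differed from untreated ureter in 7 of the 7 members tested, all higher, where 12.5% of all genes were called higher and 1.21% lower. The members Ltf and Sftpd were left without a test in the ureters, since the UN and UT libraries had served to pick them. Their log2 fold changes were 4.95 (SE 0.93) and 3.71 (SE 0.97). Lcn2 was higher by a log2 fold change of 7.85 (SE 1.5, edgeR adjusted p = 0.00226), Pigr by 4.36 (SE 0.73, adjusted p = 0.000856) and Slpi by 4.44 (SE 1.02, adjusted p = 0.00751). Saa1 was higher by 6.53 (SE 1.63, adjusted p = 0.0118), Saa3 by 5.55 (SE 1.49, adjusted p = 0.017), Wfdc2 by 1.87 (SE 0.63, adjusted p = 0.0483) and Ngp by 3.43 (SE 1.23, adjusted p = 0.0655). Without UN 3 the values were 6.45 for Lcn2, 5.84 for Saa1, 4.68 for Saa3 and 3.80 for Slpi, and these kept their calls. Slpi was at 5.16 without U 2R, Saa1 at 7.24 without U 3R and Ltf at 4.21 without UN 7. The median over the 9 members past the filter was 4.44, against 0.13 for all genes. It includes Ltf and Sftpd, which lay on either side of it at 4.95 and 3.71, so that without them it stays at 4.44. When both ureters of an untreated mouse were summed to 1 library, Pigr alone kept its call, while the fold changes hardly moved and the adjusted p of the other 6 lay between 0.124 (Lcn2) and 0.336 (Ngp). Calls over all genes went from 1950 to 147 higher in that fit. Without UN 2 the other 6 kept their calls, and Ngp had a log2 fold change of 1.05 and an adjusted p of 0.49 (edgeR). Wfdc2 lost its call without UN 3 (adjusted p = 0.144) or without U 2L (adjusted p = 0.106), and Ngp lost its call also without U 1R, U 2R, U 2L or U 3R (adjusted p 0.112 to 0.13). Among single libraries, every UN library exceeded every U library for Ltf alone of the members, a pattern of 1.46% of all genes.

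The cancerous side differed from untreated ureter in 6 of 7 tested members, all higher, beside 18.7% of all genes higher and 12.3% lower. Pigr was higher by 5.64 (SE 0.76, edgeR adjusted p = 2.088e-05), Slpi by 5.86 (SE 1.08, adjusted p = 0.000261) and Lcn2 by 7.72 (SE 1.48, adjusted p = 0.000353). Wfdc2 was higher by 2.79 (SE 0.63, adjusted p = 0.00126), Saa1 by 5.86 (SE 1.56, adjusted p = 0.00445) and Saa3 by 4.34 (SE 1.37, adjusted p = 0.0132). Ngp had a log2 fold change of 1.63 with an interval from -0.53 to 3.79 (adjusted p = 0.236). Without UT 3 the values were 7.0 for Lcn2, 4.95 for Saa1 and 3.65 for Saa3, without U 2R 6.58 for Slpi and without U 3R 6.57 for Saa1, all still called, and Ngp was at 0.93 without UT 8. For Ltf and Sftpd the fit gave 8.65 (SE 1.08) and 8.04 (SE 1.05), without a test. With both ureters of a mouse summed, Saa3 lost its call (adjusted p = 0.123) and the other 5 kept theirs. UN and UT were compared with the same U libraries, so that the calls of both comparisons are not independent. For 6 members, Ltf, Sftpd, Lcn2, Pigr, Wfdc2 and Slpi, every UT library exceeded every U library, as was so for 10.1% of all genes, and Ltf and Sftpd are among the 6 by their choice.

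The bladder gave a comparison that had no part in the choice of Ltf and Sftpd. Its libraries came from the same mice as the ureter libraries, since each of the 10 BBN mice also gave UT and each of the 3 untreated mice also gave U, so that it is not independent of the ureters. Of 9 members tested 7 were higher in BBN bladder than in untreated bladder and 0 lower, beside 7.61% of all genes higher and 5.74% lower. In the same comparison 4 of 10 neutrophil markers were higher and 6 of 12 urothelium markers lower, and their part in the result was not tested. Ltf was higher by 9.4 on the log2 scale (SE 1.59, interval 6.28 to 12.5, edgeR adjusted p = 0.00158) and Sftpd by 9.24 (SE 1.51, interval 6.29 to 12.2, adjusted p = 0.0012), although the untreated level of Sftpd rested on 4 counts. Slpi was higher by 3.68 (SE 1.12, adjusted p = 0.053), Wfdc2 by 2.29 (SE 0.72, adjusted p = 0.0611) and Pigr by 2.2 (SE 0.72, adjusted p = 0.0698). Lcn2 was higher by 7.71 (SE 2.45, adjusted p = 0.0629) and Saa3 by 5.75 (SE 1.97, adjusted p = 0.0847). Saa1 (adjusted p = 0.166) and Ngp (adjusted p = 0.102) were not called, and as both were at 0 in all untreated bladders their size is given only against a floor of 3 counts over those 3 libraries. The mean of Saa1 in BBN bladders was at least 3162-fold higher than that floor, and at least 5.88-fold without BBN bladder 3. The mean of Ngp was at least 24.4-fold higher, and at least 7.39-fold without BBN bladder 2. With these genes at their bounds the median of the 9 members was 5.75 (7.25 as fitted), against 0.25 for all genes. For Ltf, Sftpd, Lcn2, Wfdc2 and Saa3 every BBN bladder exceeded every untreated bladder, which 3.78% of all genes did. Without BBN bladder 3 the same 7 members were called, with Lcn2 at 4.97 (adjusted p = 0.00499) and Saa3 at 3.98 (adjusted p = 0.0407). Without BBN bladder 6 and the 3 of low RNA integrity together these 7 were called too, with Ltf at 10.02 (adjusted p = 3.479e-05), Sftpd at 9.63 (adjusted p = 0.000353), Slpi at 2.03 (adjusted p = 0.0413) and Saa3 at 2.73 (adjusted p = 0.0296). Leaving out any one of the 3 untreated bladders left Ltf and Sftpd as the only members called, with calls over all genes between 528 and 541 higher, and Saa3 also lost its call without BBN bladder 6 (adjusted p = 0.103).

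**Figure D4:**
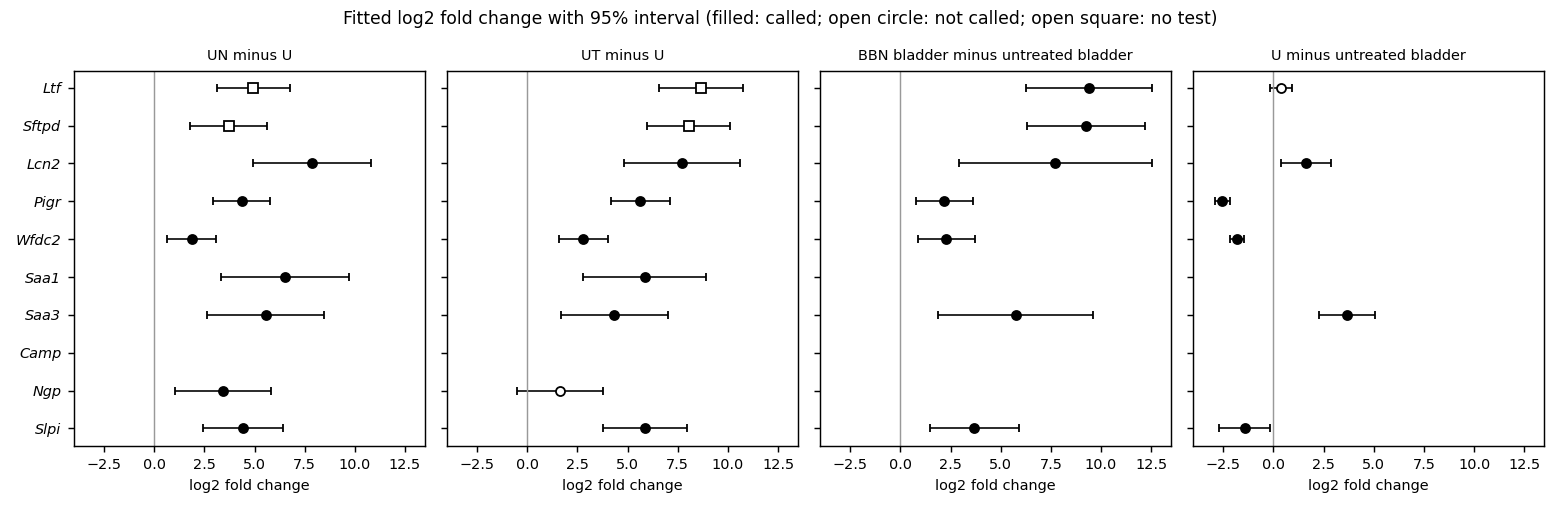
Points show the fitted log2 fold change and lines its 95% interval, filled where called at an adjusted p under 0.1 and at least 2-fold, as open circles where not called and as open squares for Ltf and Sftpd where no test was made. The values of UN and UT against U and of BBN bladder against untreated bladder lie to the right of 0, while Pigr, Wfdc2 and Slpi lie to the left in U against untreated bladder; Camp and members below the filter are not drawn, nor are Saa1 and Ngp in the bladder, where their untreated libraries were at 0.

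In untreated mice the ureter and the bladder already differed in these genes. Relative to untreated bladder, U had less Pigr by 2.55 on the log2 scale (log2 fold change -2.55, SE 0.20, edgeR adjusted p = 4.177e-07), less Wfdc2 (-1.81, SE 0.17, adjusted p = 2.809e-06) and less Slpi (-1.44, SE 0.64, adjusted p = 0.073). It had more Saa3 (3.66, SE 0.71, adjusted p = 0.000837) and more Lcn2 (1.63, SE 0.64, adjusted p = 0.046). Ltf did not pass the test (0.37, interval -0.20 to 0.95, adjusted p = 0.292), and the other 4 members were below the filter. Thus 2 of 6 tested members were higher and 3 lower, beside 15.7% and 14.3% of all genes. For Pigr and Wfdc2 every untreated bladder exceeded every U library, as did 33.4% of all genes. The calls of Slpi and Lcn2 were weak, since Slpi lost its call without any of 5 single libraries (adjusted p 0.106 to 0.301), although without U 2R it was at -2.17 (adjusted p = 0.00409), and Lcn2 lost its call without untreated bladder 3 (adjusted p = 0.159). All 12 urothelium markers were lower and all 8 white adipocyte markers higher in U than in untreated bladder. Of 9 tested neutrophil markers 6 were higher and 1 lower in U, and 5 of 8 smooth muscle markers were lower. The part of these cell types in the differences was not tested.

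The size of the BBN response on the noncancerous side was compared with that of the bladder in a single fit. None of the 7 members tested was called, where 1.51% of all genes were called higher and 0.548% lower (edgeR). Pigr had the smallest adjusted p, with a response larger in UN than in bladder by 2.13 on the log2 scale (interval 0.51 to 3.75, unadjusted p = 0.0157, adjusted p = 0.279). For Slpi the difference was 0.79 (interval -1.60 to 3.18), for Wfdc2 -0.40 (-2.21 to 1.42), for Lcn2 0.16 (-4.73 to 5.05) and for Saa3 -0.15 (-3.47 to 3.17). These intervals span several-fold differences either way. Saa1 (adjusted p = 0.631) and Ngp (adjusted p = 0.5555) are given no size, since both were at 0 in untreated bladders. The values were not stable to the bladders used, since without those of low RNA integrity Lcn2 was at 3.13, Wfdc2 turned to 0.19 and Saa3 to 2.28. Without BBN bladder 6 Lcn2 turned to -0.03. The fitted sign of Saa1 also turned without the bladders of low RNA integrity, but nothing is read from it, as its untreated level was 0. The bladders came from the same mice as UN and U, which that fit leaves out of account. With the mouse as a block none of the 7 was called either, Pigr was at 2.51 (adjusted p = 0.151) and Slpi at -0.0022, while calls over all genes went from 284 to 441 higher and from 103 to 216 lower. Ltf and Sftpd, left without a test, had values of -4.49 (SE 1.44) and -5.57 (SE 1.5), from which nothing is read, since a low level in UN relative to UT was part of their choice.

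Across the 24 ureter libraries the members ranked libraries in more or less like order, described here by Spearman's rho without a test, since all points share treatment, tissue makeup and depth. Ltf and Sftpd were both picked for a rise from UN to UT, so that their likeness over these groups follows in part from the choice. Ltf and Sftpd had a rho of 0.89, Sftpd and Wfdc2 0.87, and Sftpd and Pigr 0.83. Lcn2 ran with Saa1 (0.82) and Slpi (0.82), and about as closely with Ltf (0.76), Saa3 (0.75), Sftpd (0.75) and Wfdc2 (0.73). Ngp had a rho of 0.25 with Ltf, 0.41 with Lcn2 and 0.05 with Pigr. Within the 11 UT libraries alone, Ltf and Sftpd had a rho of 0.38 and Sftpd and Pigr 0.88. The rho over all 24 libraries also spans the differences between the groups, so that it is not comparable with the rho within UT.

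**Figure D5:**
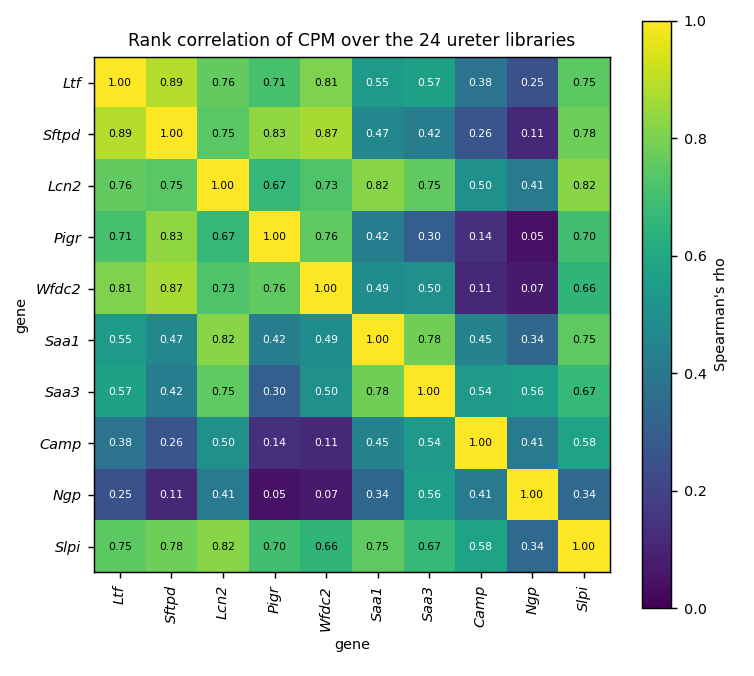
The colour and the number of each cell give Spearman's rho of the CPM of 2 genes over the 24 UT, UN and U libraries. Ltf, Sftpd, Pigr and Wfdc2 correlate at 0.71 to 0.89, Lcn2 with Saa1 and Slpi at 0.82, and Ngp with no member above 0.56.

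The 5 genes of all genes with a mean of at least 1 CPM whose levels ranked most like those of Ltf were Plekhs1 (rho 0.98 over 24 ureter libraries, 0.85 over 13 bladders), Cxcl5 (0.96 and 0.73), 2810474O19Rik (0.95 and 0.70), B4galnt1 (0.95 and 0.86) and Tmem171 (0.94 and 0.87). Cxcl5, a chemokine that draws neutrophils, ranged from 7.27 to 180 CPM in UT, 0.821 to 24 CPM in UN and 0 to 0.278 CPM in U. For Sftpd they were the water channel Aqp4 (0.95 and 0.81), Ppp1r1b (0.94 and 0.87), Tspan1 (0.94 and 0.76), the phosphate transporter Slc34a2 (0.94 and 0.29) and the matrix protease Mmp7 (0.93 and 0.76). For Lcn2 they were the metallothionein Mt1 (0.95 and 0.69), H13 (0.94 and 0.36), Bpgm (0.93 and -0.03), Fam195b (0.92 and -0.49) and Eif3i (0.91 and 0.21), and apart from Mt1 their likeness did not carry over to the bladders. For Ngp they were F630028O10Rik (0.77 and 0.21), Dnajc25 (0.76 and -0.19), the chemokine Ccl6 (0.72 and 0.55), the lysozyme Lyz2 (0.70 and 0.08) and the neutrophil surface protein Cd177 (0.70 and 0.28). Aqp4 lay at 5.78 to 694 CPM in UT, 0.548 to 11.6 CPM in UN and 0.139 to 1.24 CPM in U.

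Other genes of mucosal defense, taken from 8 lists with 116 genes beside the members, were tested in the same comparisons. Against U, 40 of 81 were higher and 0 lower in UN, beside 12.5% and 1.21% of all genes, and 45 were higher and 8 lower in UT, beside 18.7% and 12.3%. Their median log2 fold changes were 1.44 and 1.67. Among 13 tested secreted antimicrobial proteins 7 were higher in UN and 7 in UT, led by the C-type lectin Reg3g with log2 fold changes of 6.11 (SE 1.16, edgeR adjusted p = 0.00217) and 8.53 (SE 1.27, adjusted p = 5.009e-05). Reg3g had 0.696 to 1.46 CPM in U, 2.65 to 204 CPM in UN and 0.576 (UT 2) to 2133 CPM (UT 1) in UT. The antimicrobial defensin Defb1 was also higher in both, by 3.25 (SE 1.25, adjusted p = 0.0862) and 5.29 (SE 1.32, adjusted p = 0.00277). Of 10 tested whey acidic protein and protease inhibitor genes 5 were higher in UN, and 7 were higher and 1 lower (Wfdc1) in UT, with Spink5 at 5.03 (SE 1.41, adjusted p = 0.0209) and 5.01 (SE 1.37, adjusted p = 0.00529). Of 3 tested collectins and ficolins Fcna alone was higher in both, by 2.91 (SE 0.85, adjusted p = 0.0258) and 1.83 (SE 0.77, adjusted p = 0.0561).

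Of cytokines and factors that are known to induce such genes, part were called higher. Of 12 tested inducers and receptors 6 were higher in UN and 7 in UT against U, and none was lower. Il1b was higher by 4.35 (SE 0.86, edgeR adjusted p = 0.00276) and 4.60 (SE 0.85, adjusted p = 0.000271), Il6 by 4.62 (SE 0.84, adjusted p = 0.00154) and 4.24 (SE 0.81, adjusted p = 0.000335), and the granulocyte growth factor Csf3, which had 4 counts in the 6 U libraries, by 2.94 (SE 0.85, adjusted p = 0.0242) and 5.68 (SE 0.82, adjusted p = 4.299e-05). Of 13 tested transcription factors and feedback genes 6 were higher in UN, and 8 were higher and 1 lower (Cebpa) in UT, with Socs3 at 2.97 (SE 0.44, adjusted p = 0.00056) and 3.69 (SE 0.44, adjusted p = 8.65e-06). Cebpd was higher by 2.65 in UN (SE 0.40, adjusted p = 0.00056), the epithelial factor Elf3 by 3.23 in UT (SE 0.64, adjusted p = 0.000463) and Ehf by 2.40 in UT (SE 0.60, adjusted p = 0.00292). Of 14 sensors and receptors 7 were higher in each, and the lipocalin-2 receptor Slc22a17 was lower in UT (-1.65, SE 0.35, adjusted p = 0.000881). Trem1, a receptor of myeloid cells, had 3 counts in U, 302 in UN and 962 in UT. Of 6 genes of secretory immunoglobulin transport 3 were higher in each and 2 lower in UT (Fcgrt and Ccr10), with the largest change in Jchain at 4.53 (SE 0.89, adjusted p = 0.0027) and 5.25 (SE 0.91, adjusted p = 0.000165).

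Acute phase genes were called in both directions in UT. Of 10 tested, 5 were higher in UN, and in UT 5 were higher and 3 lower. Fgl1 was higher by 6.34 in UN (SE 1.23, edgeR adjusted p = 0.00234) and 5.34 in UT (SE 1.16, adjusted p = 0.000953), and Itih4 by 3.81 (SE 1.17, adjusted p = 0.0328) and 2.77 (SE 1.07, adjusted p = 0.0379). Saa2 had 2 counts in all U libraries, 1064 in UN and 1554 in UT. Between UT and UN 3 of 81 defense genes were higher, beside 1.32% of all genes, and 4 were lower, a share near the 4.2% of all genes. With so few calls nothing is read from these shares. Higher were Reg3b by 3.82 (SE 1.20, adjusted p = 0.0807), Csf3 by 2.74 (SE 0.62, adjusted p = 0.0728) and the peptidoglycan binder Pglyrp1 by 1.5 (SE 0.46, adjusted p = 0.0798). Lower there were Hamp by 3.12 on the log2 scale (log2 fold change -3.12, SE 1.02, adjusted p = 0.0863), Hpx (-2.11, SE 0.71, adjusted p = 0.0917), Ccr10 (-1.59, SE 0.54, adjusted p = 0.0926) and Cebpa (-1.54, SE 0.47, adjusted p = 0.0797). A block for the mouse, and likewise the RNA integrity number as a covariate, left 0 genes of the whole table called in either direction between UT and UN, and leaving out single libraries gave 4 to 614 higher.

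In the bladder 20 of 85 tested defense genes were higher, beside 7.61% of all genes, and 5 were lower, a share near the 5.74% of all genes. Pglyrp1 was higher by 5.39 (SE 0.79, edgeR adjusted p = 0.000501), Reg3g by 4.15 (SE 1.08, adjusted p = 0.0237) and Spink5 by 8.44 (SE 1.90, adjusted p = 0.0105, 6 counts in untreated bladders). Defb14 had 1 count in the 3 untreated bladders and 1134 in the BBN bladders. Jchain was higher by 6.58 (SE 1.47, adjusted p = 0.0101), Il1b by 4.41 (SE 1.14, adjusted p = 0.0224), Socs3 by 3.19 (SE 0.83, adjusted p = 0.024) and Cebpd by 2.61 (SE 0.62, adjusted p = 0.015). Cp, the copper oxidase ceruloplasmin, was the 1 acute phase gene of 8 that was called, at 2.15 (SE 0.63, adjusted p = 0.0442). Lower were Wfdc15b (-4.41, SE 0.71, adjusted p = 0.00112), the lipocalin-2 receptor Slc22a17 (-3.29, SE 0.41, adjusted p = 0.000136), the receptor Fcamr of IgA and IgM (-2.50, SE 0.49, adjusted p = 0.00469), the IL-17C receptor subunit Il17re (-1.5, SE 0.48, adjusted p = 0.066) and Rnase4 (-1.16, SE 0.40, adjusted p = 0.0844).

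Markers of other cell types moved with the same groups. Against U, 9 of 11 tested neutrophil markers were higher in UN, and 8 were higher and 1 lower (Elane) in UT, with S100a9 at 5.26 (SE 1.22, edgeR adjusted p = 0.00757) and 5.21 (SE 1.19, adjusted p = 0.0014) and Mmp8 at 5.53 (SE 0.97, adjusted p = 0.00118) and 6.14 (SE 0.97, adjusted p = 7.947e-05). Over all genes 12.5% were called higher and 1.21% lower in UN, and 18.7% and 12.3% in UT. Of 8 smooth muscle markers 6 were lower in UT and 0 in UN, and of 6 hepatocyte markers 1 was higher and 3 lower in UT. Of 8 macrophage markers 4 were higher in each, and of 6 plasma cell markers 3 in UN and 4 in UT. All 8 white adipocyte markers were lower in UT than in U, where their summed level ranged from 68.4 CPM (UT 2) to 41427 CPM (UT 9) against at least 47999 CPM in U, while none of them was called in UN. Urothelium markers summed to 1465 to 11322 CPM in UT, 38 to 10590.3 CPM in UN and 1954 to 3834 CPM in U, with 5 of 12 higher and 4 lower in UT. The uterus and oviduct epithelium markers were taken because Ltf is a known product of those tissues. They summed to 72.1 to 1209 CPM in UT, 50.3 to 570 CPM in UN and 384 to 4876 CPM in BBN bladders. Their sums were 114 to 141 CPM in U and 21 to 29.5 CPM in untreated bladders. Against U, 4 of these 7 tested genes rose and 1 fell on the cancerous side, and 2 rose on the noncancerous side. In the bladder only Sprr2f and Wnt7a of the 7 were called, by 9.73 and 7.51 on the log2 scale (edgeR). The oviduct gene Ovgp1 did not exceed 5.19 CPM in any library. Of 22 kidney tubule markers 10 of the 13 tested rose and 1 fell in UT relative to U, with UT 4 at a summed level of 4009 CPM. Ltf and Sftpd in UT 4 were at 392 and 48 CPM, against UT medians of 392 and 26.1 CPM. The part of kidney RNA in these levels was not tested. Between UT and UN, 5 of 13 tested kidney tubule markers were higher, with Cyp4a12a at 6.47 (SE 1.14, edgeR adjusted p = 0.0265) and Aqp4 at 5.501 (SE 0.85, edgeR adjusted p = 0.00815). These genes were also higher in BBN bladder than in untreated bladder, Cyp4a12a by 6.16 and Aqp4 by 8.22 on the log2 scale. In the bladder 4 of 17 tested kidney tubule markers were higher and 3 lower, beside 7.61% and 5.74% of all genes. Between UT and UN, 5 of 8 smooth muscle markers, 2 of 6 hepatocyte markers and 1 of 12 urothelium markers were lower. None of 11 neutrophil markers was called between UT and UN, where 1.32% of all genes were higher and 4.2% lower. In BBN bladder against untreated bladder, 4 of 10 tested neutrophil markers were higher, with S100a9 at 6.897 (SE 1.54, adjusted p = 0.0102) and S100a8 at 6.65 (SE 1.58, adjusted p = 0.0144), and the 13 measured ones summed to 72.3 to 388 CPM against 53.3 to 72 CPM. There 3 of 6 plasma cell markers were higher and 6 of 12 urothelium markers lower, with Upk1a at -5.67 (SE 0.83, adjusted p = 0.000521) and Upk2 at -4.88 (SE 0.56, adjusted p = 8.129e-05), and urothelium markers summed to 1804 to 13434 CPM against at least 23746 CPM. The part of these cell types in the members' levels was not tested.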

How the data were processed

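RNA of 37 libraries was sequenced by the authors, who deposited 1 table of counts per gene symbol for the whole series. These are estimated counts, since 21.1% of the values above 0 in the deposited table were fractional, and they were rounded to whole numbers here. The submitters' processing notes name TopHat2 2.1.1, Cuffdiff 2.2.1 and the mm10 genome; the counting program is not given in the sources used here. Counts were divided by the library total to give CPM. Groups were taken from the sample labels, and the 24 ureter libraries, the 13 bladder libraries and the untreated libraries were fitted with edgeR 4.0.16 in R 4.3.3 (TMM normalization, low counts removed by filterByExpr, quasi-likelihood test, Benjamini-Hochberg adjustment over all genes tested). A gene was called at an adjusted p under 0.1 and an at least 2-fold change. Standard errors were taken as the absolute log2 fold change over the square root of F, and intervals span 1.96 standard errors to either side. These intervals are approximate and can be narrower than the test implies. The procedure was tested on simulated data.

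The members and lists were chosen with earlier results of these data known. Named genes were the members, up to 3 genes per list and comparison with the largest change among those called, and the 5 genes most like Ltf, Sftpd, Lcn2 and Ngp; other genes were named after their values were seen. UT and UN libraries that share a number are sides of a single animal, and their deviations from the group means correlated at -0.18 to 0.65 over 7 pairs (median 0.05). Both ureters of an untreated mouse are not independent, and p-values measure the spread between libraries. Alternatives were DESeq2 1.42.0, RLE normalization, no filter, the mouse as a block, summed ureters, RNA integrity as a covariate, and leaving out single libraries.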

Additional observations from a re-analysis of the deposited data

Results flagged for a closer look

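In 30 sets of a member's levels in a group of 6 to 10 libraries, 8 held a library far outside the others by Dixon's ratio of log2(CPM + 1), where chance gives about 1 in 20. BBN bladder 3 was such a library for Lcn2 (501.2 CPM, next 27.53 CPM), Saa1 (2059 CPM, next 1.894 CPM) and Saa3 (68.59 CPM, next 7.261 CPM). BBN bladder 2 was the high one for Camp (1.256 CPM, next 0.4523 CPM) and Ngp (11.57 CPM, next 1.405 CPM). UN 2 was high for Camp (4.113 CPM, next 0.6011 CPM) and Ngp (17.46 CPM, next 2.189 CPM) and low for Pigr (1.828 CPM, next 27.85 CPM).

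Genes of the lists beside the members differed between the 2 BBN responses in the test of the difference (UN minus bladder on the log2 scale, edgeR). Of 93 tested genes of mucosal defense 3 were higher and 1 lower, beside 1.51% and 0.548% of all genes. The antimicrobial ribonuclease Rnase4 had a difference of 2.09 (adjusted p = 0.01332), Wfdc15b 3.85 (adjusted p = 0.06116), the ceruloplasmin gene Cp -2.35 (adjusted p = 0.07279) and the lipocalin-2 receptor Slc22a17 2.28 (adjusted p = 0.02017). Among markers of other cell types, Aqp4 had -5.66 (adjusted p = 0.04316), the sodium channel subunit Scnn1g 3.92 (adjusted p = 0.01351), Sprr2f -7.52 (adjusted p = 0.008914), and the uroplakins Upk2 3.82 (adjusted p = 0.027) and Upk3b 2.77 (adjusted p = 0.0607).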

How the results depend on the processing

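Over the 11 counts and medians of members, each other setting kept the direction, and the counts stayed within 1.5 times of the reported ones except in those given here. With both ureters of a mouse summed, the members higher in UN than in U went from 7 to 1, and all genes called higher there from 1950 to 147 and lower from 189 to 10; fewer libraries entered that fit. Leaving out single libraries gave 5 to 7 members higher in UN than in U (5 without U 2L), 6 in UT than in U in each fit, 2 to 8 in BBN bladder (2 without any one of the untreated bladders), and 1 to 2 higher and 2 to 3 lower in U than in untreated bladder (1 without untreated bladder 3). The members' median of UT minus UN ranged from 0.69 to 1.28 over these, and was 0.39 by DESeq2 and 0.42 with no filter; it holds Ltf and Sftpd, which were picked there, and that of the other 7 ranged from -0.85 to 1.17 (-0.12 with all libraries).

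The replicate block, with the mouse as the pair, turned Saa3 in UT minus UN to 0.4251 and Lcn2 to 1.515 and brought Ngp to -0.04401. Between UT and UN it left 0 genes called higher and 0 lower of 206 and 658, as did RNA integrity as a covariate, and it changed no call of a member in U minus untreated bladder. In the difference between the BBN responses it turned Slpi to -0.002153 and gave 441 genes higher and 216 lower, of 284 and 103. Ngp in UT minus UN ranged from -2.507 (without UT 8) to 0.5841 (without UN 2). All genes called higher and lower between UT and UN were 446 and 1802 by DESeq2, 438 and 1245 without UT 9, 5 and 14 without UN 2, while 127 were higher without UT 4 and 1137 lower with no filter. For the difference between the BBN responses, Lcn2 was at -0.2913 with RLE normalization, -0.3188 by DESeq2 and -0.03208 without BBN bladder 6. Without the BBN bladders of low RNA integrity Lcn2 was at 3.128, Wfdc2 at 0.1869, Saa1 at 3.399 and Saa3 at 2.278. The value of Saa1 is only the fitted one, and no size is read from it, since all 3 untreated bladders were at 0. The counts of all genes for the difference between the BBN responses were 455 higher and 477 lower by DESeq2. They were 571 and 244 without the BBN bladders of low RNA integrity. In the bladder DESeq2 called 5410 genes and all 10 members higher, with Camp, which edgeR filtered out, and also Saa1 (adjusted p = 0.09507) and Ngp (adjusted p = 0.005817), which was also called with RNA integrity as a covariate or without BBN bladder 4, 7, 8 or 10 (adjusted p 0.0795 to 0.0967), and leaving out BBN bladder 6 with those of low RNA integrity gave 1601 lower. In UN minus U 311 were lower by DESeq2 and 320 with RNA integrity as a covariate. The cause of these changes was not tested. Leaving out each library was planned; leaving out BBN bladder 6 together with those of low RNA integrity, the ratios to Ngp without single libraries, the median without Ltf and Sftpd and the block in the difference between the BBN responses were chosen after seeing the data. Levels under 1 CPM, as of Camp, Ngp and untreated Sftpd, rest on few counts, which limits their precision.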
